A study of Bubalus bubalis with 3 samples.

Results

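The miR-199 and miR-214 microRNAs were examined in fat of the Chinese swamp buffalo, a type of water buffalo (Bubalus bubalis). They were chosen by name from the deposited miRNA table as bta-miR-199a-3p, bta-miR-199a-5p, bta-miR-199b, bta-miR-199c and bta-miR-214, where bta stands for the bovine entry, and the prefix is mostly left out below. All 5 names were listed, of 622 names in all and 396 known bovine names. No other listed name belonged to a miR-199 or miR-214 hairpin (0 names). The series held 1 group of 3 small RNA libraries, called library 1, 2 and 3 here, from adipose tissue of calves aged 6 months, snap-frozen after collection at an abattoir. The labels give no treatment, no genotype, no fat depot and no sex, and do not say whether each library came from its own animal, so the spread between libraries may be technical. No contrast between groups exists in these data, and what follows describes levels, ratios and spread.

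miR-199a is made from hairpins in opposite-strand transcripts within introns of the dynamin genes DNM2 and DNM3, miR-199b from one within DNM1, and miR-214 lies beside the DNM3 copy of miR-199a in a shared primary transcript. In mouse, the transcription factor Twist1 drives that transcript, and the miRNAs are known as markers of mesenchymal cells such as fibroblasts and pericytes. Each hairpin yields a 5p and a 3p arm, which have different seeds and therefore different targets. All 3 dynamin genes were listed in the RefSeq annotation of the buffalo assembly NDDB_SH_1, on 3 different chromosomes. The positions of the miRNA hairpins and the mature sequences were not analysed here.

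Values are TPM (per 1000000 reads of the listed names) as the authors deposited them. The spacing of low values put depth at about 5480000 to 6860000 reads per library. Library 2 stood apart: the most abundant miRNA of the tissue, miR-10b, took 48.8% of its TPM against 26.5% and 40.4% in libraries 1 and 3. Size factors, the median ratio of each library to the average library over the 166 names whose mean reached 10 TPM (the tested names), were 1.39, 0.609 and 1.16 in libraries 1, 2 and 3. Values are therefore given both as deposited and divided by these factors. Tissue was sequenced whole, so fewer cells of a type and less RNA per cell cannot be told apart.

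All 5 miR-199 and miR-214 names reached a mean of 10 TPM, as did 40.2% of the known names. Together they held 0.424%, 0.166% and 0.356% of TPM in libraries 1, 2 and 3, or 0.315% ± 0.134 (SD, n = 3). Within that sum miR-199a-3p took 61.2% ± 6.43, miR-199b 24.5% ± 5.74, miR-199a-5p 11.6% ± 0.888, miR-214 1.79% ± 0.381 and miR-199c 0.971% ± 0.0317. Almost all of the signal thus came from names of the miR-199 family. The share taken by miR-199c had the smallest SD of the 5, but it was also the smallest share and rested on the fewest reads.

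bta-miR-199a-3p, which represses MTOR and MET in human cells, was the most abundant of the 5. It had 2484, 935 and 2439 TPM in libraries 1, 2 and 3 (1953 ± 881, SD, n = 3), and ranked 31, 35 and 29 among all names. Libraries 1 and 3 were close to each other, and library 2 was lower than both. Its mean lay above that of 81.9% of the tested names. The estimated reads behind the values were 17052, 6331 and 13373, and in library 2 the 95% exact Poisson interval was 912 to 959 TPM, so counting error was small against the gap to the other libraries.

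bta-miR-199b came next, with 1174, 463 and 637 TPM in libraries 1, 2 and 3 (758 ± 371, SD, n = 3). Here library 1 stood above both others, and library 3 lay nearer to library 2. In human, the 3p arms of miR-199a and miR-199b are the same sequence and the 5p arms differ by little. The name in the table gives no arm, and the rule for dividing reads that match several such names is not stated in the labels. The split between miR-199a-3p, miR-199b, miR-199a-5p and miR-199c is therefore uncertain.

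bta-miR-199a-5p, which represses caveolin-1 in human lung fibroblasts, had 478, 208 and 386 TPM (358 ± 137, SD, n = 3). Library 2 was again lowest, and ranks were 57, 63 and 63. Its mean exceeded that of 63.9% of the tested names.

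bta-miR-214, which represses ATF4 in mouse osteoblasts, had 59.7, 36.0 and 64.0 TPM (53.2 ± 15.1, SD, n = 3). It was below miR-199a-5p, its neighbour in the order, in each library. With about 410, 244 and 351 reads, its 95% intervals were 54.1 to 65.8, 31.6 to 40.8 and 57.5 to 71.1 TPM, so library 2 was separated from libraries 1 and 3 by more than counting error, while libraries 1 and 3 overlapped. Its rank among all names was highest in library 2 (102, against 123 and 107), although its TPM was lowest there.

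bta-miR-199c was the least abundant, with 40.4, 15.8 and 35.9 TPM (30.7 ± 13.1, SD, n = 3). It rested on about 277, 107 and 197 reads, and its intervals were 35.8 to 45.4, 12.9 to 19.1 and 31.1 to 41.3 TPM. It ranked 135, 135 and 133. Only 18.1% of the tested names had a lower mean.

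**Figure D1:**
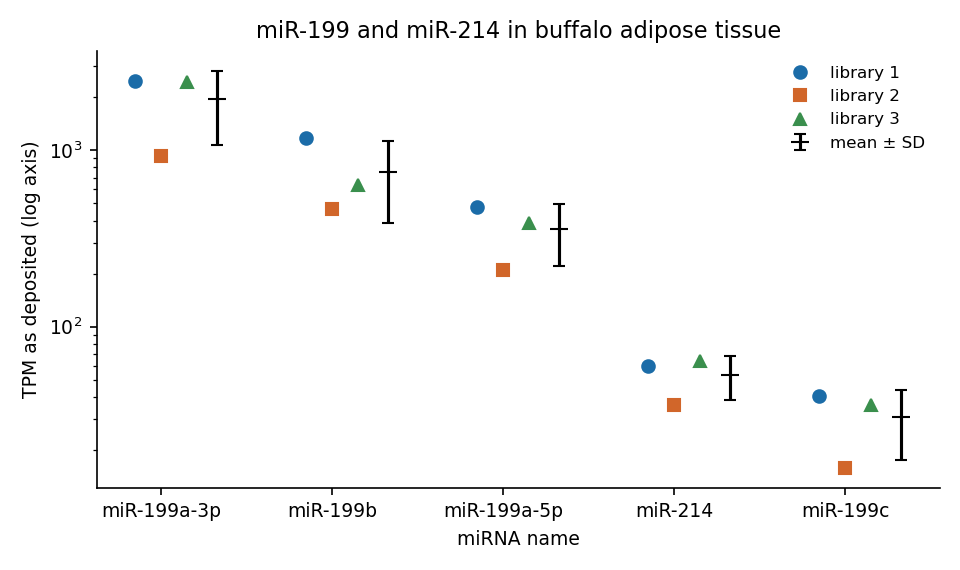
TPM as deposited (log axis) of each miR-199 and miR-214 name in libraries 1, 2 and 3, with the mean ± SD over the 3 libraries in black. Library 2 is the lowest for every name, and the names keep the order miR-199a-3p, miR-199b, miR-199a-5p, miR-214, miR-199c in each library.

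The order of the names was the same in 3 of 3 libraries. Neighbours were compared as the difference of log2(TPM + 1) within a library, which moves little with the scaling of that library. miR-199a-3p exceeded miR-199b by 1.34 ± 0.51 log2 units (SD, n = 3), miR-199b exceeded miR-199a-5p by 1.05 ± 0.30, miR-199a-5p exceeded miR-214 by 2.69 ± 0.26, and miR-214 exceeded miR-199c by 0.84 ± 0.29. Each mean difference was larger than its SD, whereas the TPM ranges over libraries overlapped for miR-214 (36.0 to 64.0) and miR-199c (15.8 to 40.4), for miR-199b and miR-199a-5p, and for miR-199a-3p and miR-199b. Those of miR-199a-5p and miR-214 did not. The order is a description, and of the differences between these names only that between the arms of miR-199a was tested. Different small RNAs are ligated and amplified with different efficiency, which limits any comparison of levels between sequences.

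The arms of the miR-199a hairpin were compared within each library. The 3p arm had 5.19, 4.49 and 6.31 times the TPM of the 5p arm in libraries 1, 2 and 3. The 95% exact counting interval was 4.24 to 4.76 in library 2 and 6.03 to 6.61 in library 3, so the ratio differed between these libraries by more than counting error. On the log2(TPM + 1) scale the difference was 2.40 ± 0.25 (SD, n = 3), with more 3p in 3 of 3 libraries (limma over 20 hairpins, SE 0.29, Benjamini-Hochberg adjusted p = 7.52e-10, two-sided). The SE draws almost wholly on the variance pooled over all 20 hairpins. It ran only from 0.294 to 0.308 over them, although their own SDs ran from 0.14 to 1.25. The p therefore refers to this pooled spread and does not measure the spread of the miR-199a ratio itself. The 3 libraries may also not be separate animals. These 20 were the hairpins whose more abundant arm reached a mean of 10 TPM, of 33 with both arms listed. In the same fit, at a threshold of 0.05 on the adjusted p, 30% of the hairpins were called towards 3p and 85% in either direction. miR-199a had place 5 of 20 in order towards 3p, behind miR-369 (4.33 ± 1.25) and ahead of miR-193a (1.31 ± 0.25). Unlike hairpins with a nearly absent arm, both of its arms were among the tested names. How reads shared by miR-199 names were divided is not stated, and the name miR-199b carries no arm. Reads named miR-199a-3p may include some of the miR-199b hairpin, so the ratio compares these names and need not be that of a single hairpin.

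**Figure D2:**
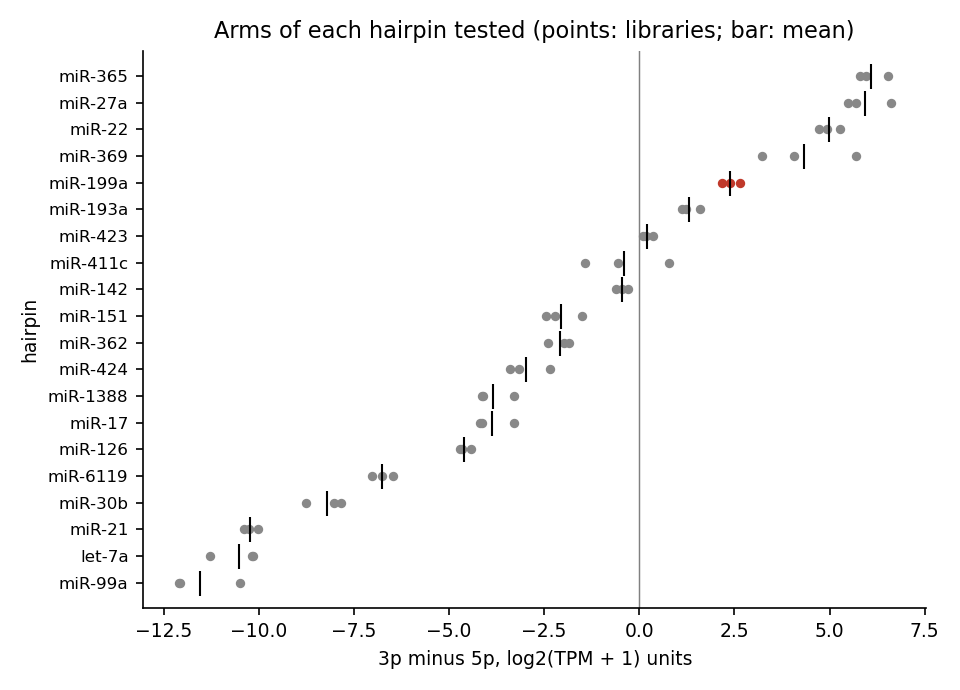
Difference of log2(TPM + 1) between the 3p and the 5p arm for each of the 20 hairpins with both arms listed and the more abundant arm at a mean of 10 TPM or more; points are the 3 libraries, the black bar their mean, and miR-199a is in red. The miR-199a points lie between 2.16 and 2.65, on the 3p side.

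Across libraries, all 5 names were lowest in library 2 as deposited, which held for 91.6% of the tested names. The highest library exceeded the lowest by 2.66-fold for miR-199a-3p, 2.54-fold for miR-199b, 2.30-fold for miR-199a-5p, 2.56-fold for miR-199c and 1.78-fold for miR-214. The SD of log2(TPM + 1) was 0.81, 0.68, 0.62, 0.71 and 0.44 in that order. The median over the 5 names was 0.68, close to 0.66 over the tested names. Library 2 set this value, since without it the median over the 5 names was 0.12 and that over the tested names 0.28.

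After division by size factors 2 of the 5 names were lowest in library 2, against 31.3% of the tested names. The values of miR-199a-5p were then 345, 342 and 334 in libraries 1, 2 and 3, a coefficient of variation of 1.65%. Its SD on the log2 scale fell to 0.02, and 1.20% of the tested names had a smaller one. In library 2 the counting interval of miR-199a-5p, as deposited, was 198 to 219 TPM around a value of 208 TPM. That interval is wide against this spread, so agreement this close lies within counting error. miR-199c, with 29.1, 26.0 and 31.0, had an SD of 0.13.

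The other 3 names differed in which library was high or low. miR-199a-3p had 1790, 1537 and 2108, with library 3 highest (SD 0.23 on the log2 scale). miR-199b had 846, 761 and 550, with library 3 lowest (SD 0.32). miR-214 had 43.0, 59.2 and 55.3, with library 1 lowest (SD 0.24). Of the 5 names, 4 had an SD below the median of the tested names after size factors (0.29), the exception being miR-199b, and the median over the 5 was 0.23.

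**Figure D3:**
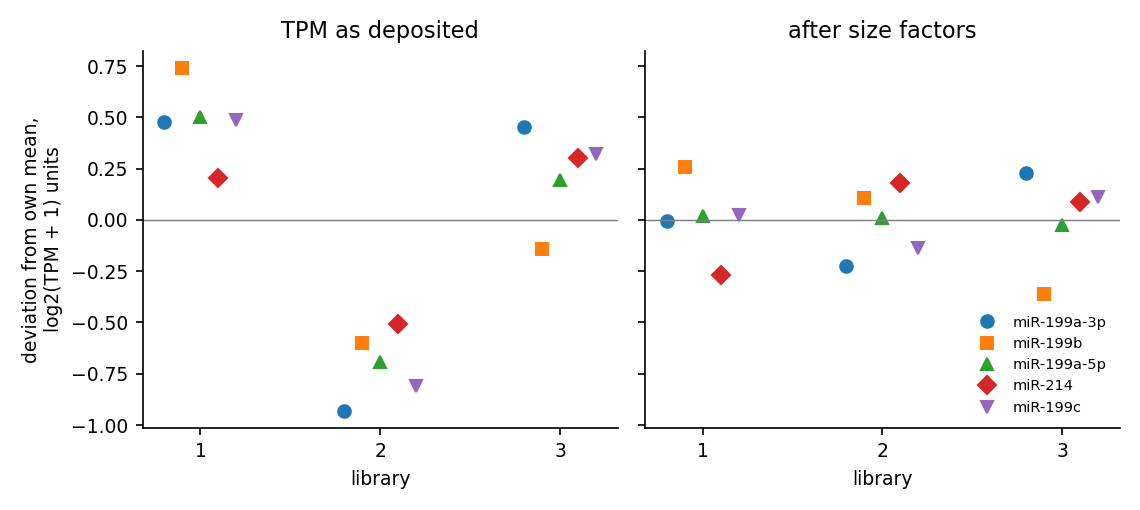
Deviation of each name from its own mean over the 3 libraries in log2(TPM + 1) units, as deposited (left) and after size factors (right). On the left every name lies below 0 in library 2 (-0.51 to -0.93); on the right the points lie between -0.36 and 0.26, and miR-199a-3p and miR-199b deviate in opposite directions in library 3.

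Ratios between the names, taken without size factors, were compared over the 3 libraries. The spread of a ratio is the SD over the 3 libraries of the difference in log2(TPM + 1). It was smallest for miR-199c with miR-199a-3p (0.12) and with miR-199a-5p (0.12), and with no pseudocount these were 0.10 and 0.15. Of all 13695 pairs of tested names, 5.75% and 5.77% had a smaller spread. miR-199a-3p had 61.5, 59.2 and 67.9 times the TPM of miR-199c in libraries 1, 2 and 3. Counting intervals of this ratio overlapped (54.7 to 69.6, 48.9 to 72.3 and 59.0 to 78.5). The split of reads between these miR-199 names is also uncertain.

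The widest spread was that of miR-199a-3p with miR-199b (0.51), at the middle of all pairs, since 50.3% had a smaller one. The ratio was 2.12 and 2.02 in libraries 1 and 2 and 3.83 in library 3, where the counting interval of 3.69 to 3.98 did not reach the other values. Library 3 thus stood apart for this pair, while libraries 1 and 2 were alike.

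miR-214 was set against the miRNA with which it shares a transcript. miR-199a-5p had 8.01, 5.79 and 6.04 times the TPM of miR-214 in libraries 1, 2 and 3 (spread 0.26), and miR-199a-3p had 41.6, 26.0 and 38.1 times (spread 0.37). For the 5p arm, library 1 was above the counting intervals of library 2 (5.04 to 6.65) and library 3 (5.39 to 6.78), which overlapped. miR-199a can also come from the DNM2 copy, and the name does not tell the copies apart. miR-199b had 19.7, 12.9 and 9.95 times the TPM of miR-214 (spread 0.50). miR-214 in turn had 1.48, 2.28 and 1.78 times the TPM of miR-199c (spread 0.29), and the counting interval of this ratio ended at 1.73 in library 1 and began at 1.81 in library 2.

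The median spread over the 10 pairs was 0.30, against 0.51 over all pairs of tested names, and 9 of the 10 pairs lay below that median. The pairs share members and are not independent of each other. Of the 161 other tested names, 65.8% also lay below that median in their ratio to miR-199a-3p. Spreads with miR-199a-3p were smaller for let-7i (0.07) and miR-93 (0.09) than for any of the 10 pairs. The count of 9 therefore does not show variation particular to these names, and it was not tested. Without library 3 the median over the 10 pairs was 0.13, and that over all pairs 0.43. Over all pairs of names whose mean reached 100 TPM, the median was 0.41.

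**Figure D4:**
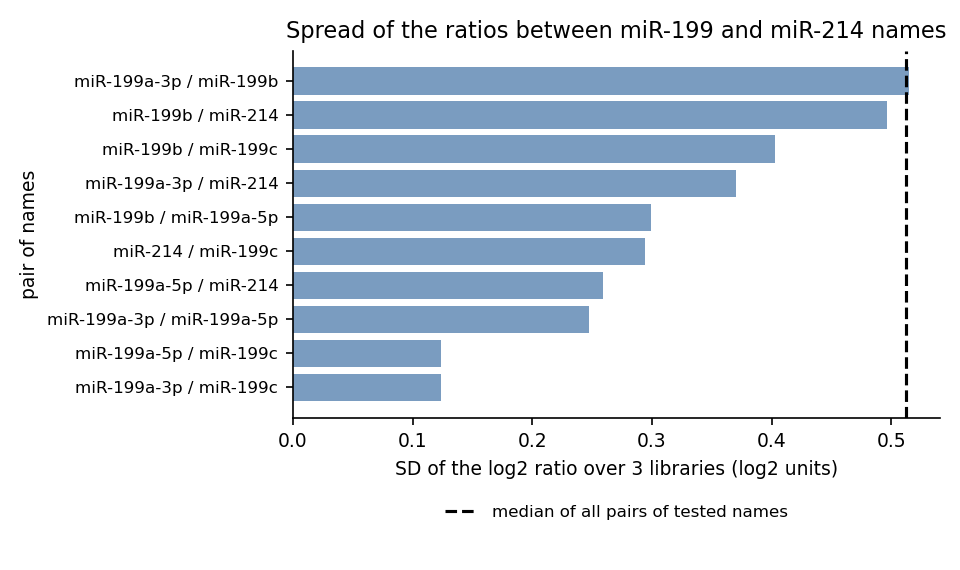
SD over 3 libraries of the log2 ratio, taken as the difference in log2(TPM + 1), for each of the 10 pairs of miR-199 and miR-214 names; the dashed line is the median over all pairs of tested names (0.51). The pairs with miR-199c and either arm of miR-199a are lowest (0.12), and the 3 highest bars all hold miR-199b.

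The known miRNAs whose ratio to each name varied least over the 3 libraries were ranked as a description, with no test, over 3 libraries that share the same low library 2. For miR-199a-3p they were miR-6119-5p (spread 0.03), let-7i (0.07), miR-93 of the miR-106b-25 cluster (0.09), miR-338 (0.09) and miR-3600 (0.10). let-7i, for example, had 5222, 1794 and 5032 TPM. For miR-199b they were miR-224 (0.06) and miR-23b-3p (0.12), and for miR-199a-5p let-7g (0.02) and miR-30e-5p (0.02). For miR-214 the nearest was miR-29b (0.03), a repressor of collagen genes, with 33.2, 20.7 and 35.7 TPM, followed by miR-185 (0.06). For miR-199c they were miR-378, encoded in the PPARGC1B gene (0.01), and miR-98 of the let-7 family (0.03). Counting intervals in library 2 were 12.9 to 19.1 TPM for miR-199c, 31.6 to 40.8 for miR-214 and 198 to 219 for miR-199a-5p. Spreads of 0.01 to 0.03 lie within such error, so which miRNA came nearest to these names is not settled.

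Other miRNAs linked to fibroblasts and matrix were present at a wide range of levels. Of 10 in that list, all were listed and 9 reached a mean of 10 TPM, against 40.2% of known names. The highest were miR-143, a miRNA of smooth muscle and other mesenchymal cells (209686 ± 51428 TPM, SD, n = 3), miR-21-5p, which acts in activated fibroblasts (3879 ± 1738), and miR-145, the partner of miR-143 (961 ± 479). miR-199a-3p thus lay between miR-21-5p and miR-145 in mean. miR-34a missed the minimum at 9.67 ± 3.73 TPM. The median spread of the ratio of these 9 miRNAs to miR-199a-3p was 0.31, and each of the 9 lay below the median of all pairs of tested names. So did 65.8% of the 161 tested names outside the miR-199 and miR-214 set. In the lists taken up next, 6 of 6 adipocyte and 2 of 2 endothelial miRNAs also reached a mean of 10 TPM. The same held for 3 of 3 red blood cell and 4 of 5 white blood cell miRNAs. Of striated muscle 0 of 4 did, and of epithelium 0 of 6. Reaching that mean was thus not particular to the fibroblast and matrix list.

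The same measure was taken for markers of other cells in fat. The median spread of the ratio to miR-199a-3p was 0.27 for 6 adipocyte miRNAs, led by miR-148a, miR-378 and miR-103, of which 5 lay below the median of all pairs. It was 0.35 for the 2 arms of the endothelial miR-126 and 0.40 for the 3 red blood cell miRNAs miR-486, miR-451 and miR-144, all of which lay below it. It was 0.85 for 4 of 5 white blood cell miRNAs, led by miR-150, miR-142-5p and miR-142-3p, of which 0 lay below it. The summed white blood cell list was highest in library 1 (914, 190 and 297 TPM), and after size factors it had 659, 312 and 256. miR-199b (846, 761 and 550) was then also highest in library 1 and lowest in library 3. The values of miR-199a-5p (345, 342 and 334) fell in the same order, but differences this small lie within counting error. miR-199a-3p, miR-214 and miR-199c did not have this order. The spread to the white blood cell list was thus the widest of the 5 lists with names at 10 TPM, and leaving out any 1 library gave 0.53 to 1.16. Leaving out library 1 lowered the adipocyte spread to 0.12 and the white blood cell spread to 0.53. Leaving out library 2 lowered the endothelial spread to 0.05 and the red blood cell spread to 0.23. None of these differences between lists was tested. Striated muscle (9.7 to 32.4 TPM summed over 4 names, led by miR-1, miR-133a and miR-499) and epithelium (7.1 to 16.1 TPM over 6, led by miR-141, miR-200a and miR-205) had 0 names at a mean of 10 TPM. miR-141 (mean 9.87 TPM), miR-1 (9.27) and miR-133a (9.03) lay just below that minimum, so the count of 0 depends on where it is set. miR-206 was listed at 0 in libraries 2 and 3, miR-200b in libraries 1 and 2, and miR-205 and miR-429 in library 2. Both sums were lowest in library 2, as were the miR-199 and miR-214 names.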

How the data were processed

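Per the file headers, the values the authors deposited are TPM, in 1 table of miRNA names by library, rounded to 1 decimal. The submitters' processing notes name Bowtie and UMD3.1, a bovine build; no source used here states the counter, the miRNA annotation or any filter. All 3 columns were mapped by name (0 unmapped). The step between values up to 30 TPM was taken as 1 read (0.146, 0.148 and 0.182 TPM): 99.5% to 100% of 371 to 400 low values lay on it within rounding, against 54.7% to 68.7% by chance. On simulated tables of 622 names the step was off by at most 0.0223%. Reads are thus estimates and no count model was used. Intervals (95%, exact) reflect counting alone, as PCR copies are not independent molecules, and 3 reads correspond to 0.437 to 0.547 TPM.

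Values were analysed as log2(TPM + 1), which understates changes of low names. Arms were tested with limma 3.58.1 (R 4.3.3), checked on simulated data; other values were computed with pandas 2.3.3 and scipy 1.17.1. Named miRNAs were the chosen names, the nearest 5 (miR-199a-3p) or 2 (the others) by ratio spread, and the 3 most abundant of each marker list; miRNAs of neighbouring hairpins in the arm order and those just below a minimum or at 0 were picked once their values were known. The names and lists were chosen with earlier results of these data known. Alternatives were the pseudocount, the minimum mean, size factors, the total without miR-10b and leaving out each library.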

Additional observations from a re-analysis of the deposited data

How the results depend on the processing

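The order of the 5 names and the arm difference of miR-199a kept their direction under every pseudocount, minimum and left-out library that was run; the arm difference ranged from 2.27 to 2.51 without 1 library, with adjusted p from 2.56e-06 to 0.0017 in limma, and from 2.36 to 2.40 under the other settings. Once miR-10b was taken out of the total, a setting chosen after the data were seen for the single names, the summed share became 0.499% and the means became 3100 (miR-199a-3p), 1191 (miR-199b), 569 (miR-199a-5p), 86.3 (miR-214) and 48.7 TPM (miR-199c), as the total is smaller by construction. Size factors lowered the median SD to 0.23 for the 5 names and 0.29 for the tested names, and with no minimum the latter was 0.38. Without 1 library the median SD ran from 0.12 to 0.92 for the 5 names and from 0.28 to 0.79 for the tested names, and the median ratio spread over the 10 pairs from 0.13 to 0.28. The ratio spreads to marker lists, with their settings, were added after the data were seen. No paired analysis was possible because the series holds 1 group. Depth limits miR-199c and miR-214 most, with as few as 107 and 244 reads.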
